A study of Mus musculus with 4 samples.

Results

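Mouse embryonic stem (ES) cells that already carried a hairpin against Esrrb were compared with cells that carried hairpins against both Esrrb and Sox2, so that the comparison reads what the Sox2 hairpin changed on a background of reduced Esrrb. A hairpin is a short RNA expressed from a plasmid that directs the degradation of its target transcript. The series held 4 groups of mouse ES cells, labelled E14: a control hairpin against GFP, which has no mouse target, a hairpin against Esrrb, a hairpin against Sox2, and both hairpins together. The hairpins were delivered by lipofection, transfected cells were selected with puromycin for 2 days, and total RNA was labelled with biotin and hybridised to single-colour bead arrays, 4 arrays per group named A to D. The 8 arrays compared here were the 4 with the Esrrb hairpin ("Esrrb arrays") and the 4 with both hairpins ("dual arrays"), so the Esrrb hairpin, the selection and the culture were common to both groups. Genes entered the comparison when a probe was detected, at a detection p under 0.01, on all 4 arrays of either group, which kept 8040 genes, against 8248 with all 4 groups considered. Whether the 4 arrays of a group read separate transfections is not stated in the labels, so the p-values rest on array-to-array spread that may be only technical. How many hairpins were used per gene, and whether the plasmid amount was matched in the dual transfection, is not stated either.

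Sox2 is a high-mobility-group transcription factor that, in ES cells, binds DNA beside Oct4 (encoded by Pou5f1) at a composite sequence element near many genes of the pluripotent state. Esrrb is an orphan nuclear receptor that binds many of the same enhancers and maintains the naive state of self-renewing ES cells. Loss of Sox2 or Oct4 from mouse ES cells is known to lead to trophectoderm-like cells, the lineage that forms the placenta, whereas Esrrb is itself also a trophoblast stem cell factor.

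Levels are given as log2 normalised signal of the brightest kept probe of a gene, and differences as dual arrays minus Esrrb arrays on the same log2 scale, with the standard error (SE) of the limma fit over all 16 arrays (n = 4 per group) and a Benjamini-Hochberg adjusted p over all 8040 genes. A gene is said to have risen or fallen when that adjusted p was under 0.05. The dimmest detected probe of an array lay between 5.20 and 5.72 on this scale. In bulk RNA, fewer cells of a type and less RNA per cell cannot be told apart, and this holds for every difference below.

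Between 11597 and 13238 of 25697 probes were detected per array. Within each group the arrays correlated at 0.985 to 0.996, and no pair of arrays was identical. The first principal component of the 8 arrays held 58.3% of the variance and placed every Esrrb array on one side (-18.2 to -16.5) and every dual array on the other (15.45 to 22.01). The second component, with 17.9%, separated arrays A and B from C and D in both groups. Arrays A and B also had higher median intensities (24.9 to 27.7) than C and D (17.9 to 20.0) and fewer detected probes, and differences that diverged between the array sets are gathered at the end. The 9 ES cell markers with a probe were detected on all 8 arrays, while the blood markers Ptprc, Lyz2 and Hbb-bt and the neural markers Sox1, Pax6 and Tubb3 were detected on none.

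The targeted transcripts were read first. Sox2 gave 9.09, 9.14, 8.92 and 8.86 on Esrrb arrays A to D and 8.64, 8.75, 8.45 and 8.64 on the dual arrays. All 4 dual arrays lay below all 4 Esrrb arrays, and Sox2 fell by 0.38 (SE 0.08, adjusted p = 0.00178), a 1.30-fold reduction. In the absence of the Esrrb hairpin the same hairpin gave a Sox2 difference of -0.45. Sox2 was already lower with the Esrrb hairpin alone (mean 9.001) than with the control hairpin (mean 9.55), so the dual arrays, at 8.62, had the lowest mean of the 4 groups. A second, dimmer Sox2 probe differed by -0.81 (adjusted p = 0.00214 over all kept probes) and was detected on 3 of 4 dual arrays. Esrrb gave 11.34, 11.39, 11.41 and 11.46 on the Esrrb arrays and 11.65, 11.87, 11.71 and 11.71 on the dual arrays. Every dual array was above every Esrrb array: the Esrrb transcript was 1.26-fold higher when the Sox2 hairpin was added (0.34, SE 0.07, adjusted p = 0.000826). The Sox2 hairpin moved Esrrb the opposite way against the control hairpin (-1.21), and the difference between both effects was 1.55 (SE 0.09, adjusted p = 2.37e-07). Mean Esrrb levels were 13.51 with the control hairpin, 12.29 with the Sox2 hairpin, 11.74 with both and 11.40 with the Esrrb hairpin alone. On arrays A and B alone Sox2 differed by -0.42 and Esrrb by 0.40, and on C and D alone by -0.35 (adjusted p = 0.0793) and 0.28 (adjusted p = 0.0509). The dual cells thus held less Sox2 but somewhat more Esrrb transcript than the cells they are compared with.

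Adding the Sox2 hairpin changed 3328 of 8040 genes (41.4%): 1704 rose (21.2%) and 1624 fell (20.2%). All 3328 differed in the same direction on arrays A and B as on C and D. These arrays also gave the calls, so this agreement follows largely from the selection and is no separate support. Most differences were small: 904 genes (11.2%) changed at least 1.5-fold, 529 of them upward (6.58%) and 375 downward (4.66%). At least 2-fold changes numbered 174 (2.16%), 98 upward (1.22%) and 76 downward (0.945%). The 12 largest rises were the homeobox genes Rhox6 and Rhox9, the placental genes Plac1, Nxf7 and Zfp36l3, the simple-epithelial keratins Krt18, Krt8 and Krt7, the interferon-induced chemokine Cxcl10, the acyltransferase Gpat3, the growth-factor-binding protein Igfbp6 and the muscle actin Acta1. The 12 largest falls were the transporter scaffold Pdzk1, the hormone precursors Trh and Pdyn, the transcription factors Otx2 and Klf2, the ubiquitin ligase Trim2, the lipid hydrolase Aoah, the lipase cofactor Clps, the Ras exchange factor Rasgrp1, Accsl, and the myosin genes Mylpf and Myo1f. Both rankings were made among called genes whose dual and Esrrb arrays did not overlap. The plot of these 24 genes by array therefore shows the groups apart for each of them by choice.

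**Figure D1:**
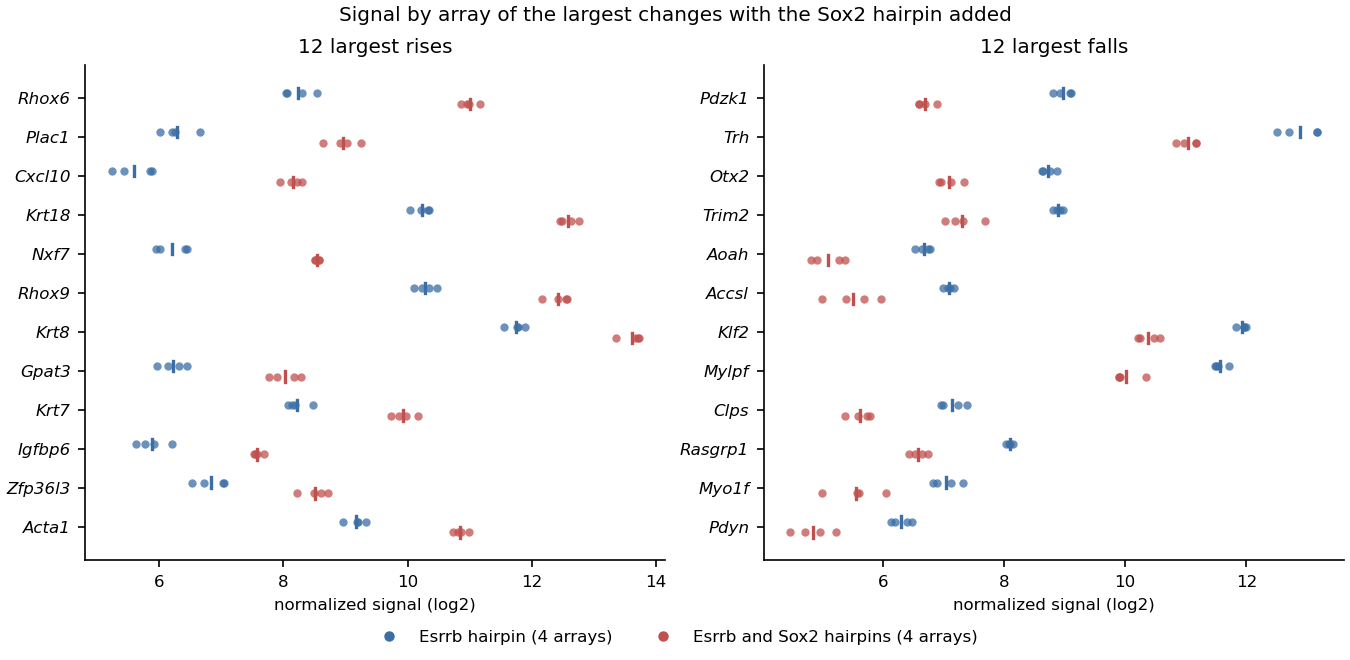
Log2 normalised signal (x axis) of the 12 genes with the largest rises and the 12 with the largest falls, 1 dot per array (Esrrb hairpin in blue, both hairpins in red, 4 arrays each) and a tick at each group mean. The dots of the groups do not overlap for any of the 24 genes, which were chosen among genes without such overlap. Rhox6 runs from 8.04 to 8.54 with the Esrrb hairpin and from 10.86 to 11.18 with both.

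Genes of the trophectoderm and placenta were among the largest rises. Of 28 such genes listed, 25 were kept; 19 rose (21.2% of all genes did), and the other 6 did not pass the test. Their median difference was 1.17, against -0.02 for all 8040 genes. Rhox6, an X-linked homeobox gene expressed in placenta and germ cells, gave 8.54, 8.30, 8.06 and 8.04 on the Esrrb arrays and 10.995, 10.97, 10.86 and 11.18 on the dual arrays. The dual arrays were all higher, by 2.76 (SE 0.10, adjusted p = 1.16e-10) or 6.79-fold. Its neighbour in the same cluster, Rhox9, rose by 2.14 (SE 0.10, adjusted p = 4.2e-10). Plac1, a membrane-associated protein of trophoblast, gave 6.25, 6.66, 6.02 and 6.20 against 9.03, 9.25, 8.64 and 8.92, again without overlap, a rise of 2.68 (SE 0.14, adjusted p = 3.07e-09). Krt18, the partner of Krt8 in the intermediate filaments of simple epithelia, gave 10.35, 10.33, 10.22 and 10.05 against 12.63, 12.50, 12.76 and 12.46, a 5.09-fold rise (2.35, SE 0.09, adjusted p = 1.16e-10). Krt8 rose by 1.86 and Krt7 by 1.71. Gata3, a transcription factor that drives trophectoderm genes, read 6.32, 6.32, 6.36 and 6.32 on the Esrrb arrays and 7.84, 7.96, 8.03 and 8.08 on the dual arrays. It rose by 1.65 (SE 0.07, adjusted p = 1.18e-10), and Gata2 rose by 1.33. Cdx2, the factor best known for specifying trophectoderm, differed by 0.11 and did not pass the test, and Eomes and Elf5 were not detected well enough to be kept. Across the 10 trophoblast markers, 7 were detected on all 8 arrays and 8, Hand1 included, were kept. The summed level of those kept ranged from 12.38 to 12.52 on the Esrrb arrays and from 14.20 to 14.46 on the dual arrays.

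Of the 12 largest rises, 5 (Rhox6, Rhox9, Plac1, Nxf7 and Zfp36l3; 41.7%) lie on the X chromosome, against 258 of all 8040 genes (3.21%). Of the 98 genes that rose at least 2-fold, these 5 among them, 7 were X-linked (7.14%), as were 6 of the 76 that fell at least 2-fold (7.89%).

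Of 23 extraembryonic endoderm genes listed, 13 were kept; 8 rose and 1, the lipoprotein gene Apoe, fell (21.2% and 20.2% of all genes), with a median difference of 0.65. The smallest of the 8, Amn, differed by 0.18 and lost its call with the replicate block (adjusted p = 0.0581). Col4a1, a type IV collagen chain of basement membranes, gave 10.65, 10.72, 10.52 and 10.42 on the Esrrb arrays and 12.18, 12.16, 11.96 and 12.11 on the dual arrays, a rise of 1.52 (SE 0.09, adjusted p = 7.88e-09). Its partner Col4a2 rose by 1.16 and the matrix protein Sparc by 0.83. The laminin genes Lama1, Lamb1 and Lamc1, which encode the other large basement membrane component, differed by 0.21, 0.08 and 0.07 and did not pass the test. They are named here after their values were seen. Gata6 and Sox7, transcription factors of primitive endoderm, rose by 0.65 and 0.68, although Sox7 was detected on 3 of 4 Esrrb arrays and its arrays overlapped between groups, while Sox17 differed by -0.11 and did not pass. Afp was detected on none of the 8 arrays. Of 9 endoderm markers, 6 were detected on all 8 arrays and 7, Sox7 included, were kept. The 7 kept summed to 11.39 to 11.67 on the Esrrb arrays and 12.50 to 12.69 on the dual arrays. Feeder fibroblasts also make collagen, and 8 of 15 fibroblast markers were detected on all 8 arrays while Col1a2, Col3a1, Dcn, Postn and S100a4 were detected on none. The summed fibroblast level ranged from 14.001 to 14.42 on the Esrrb arrays and from 14.69 to 14.77 on the dual arrays. Most of that sum is Acta2, whose mean was 13.85 and 14.41 and which is also in the actin list; of the 8 kept fibroblast markers 3 rose, 1 fell and 4 did not pass. Col1a1 had means of 8.46 and 8.50 and Fbln2 of 10.23 and 10.21, while Col6a1 had 7.51 and 8.74. The part of any such cells in the rise of collagen and actin genes was not tested.

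Signalling targets of BMP, a pathway active in trophectoderm and mesoderm, were mostly higher. Of 14 listed, 10 were kept and 8 rose (21.2% of all genes rose), with a median of 0.59. The list shares Gata2, Gata3, Msx2, Dlx3 and Id2 with the trophectoderm list, so these are counted in both. Gata3, Gata2 and the homeobox gene Msx2 (1.33, SE 0.17, adjusted p = 1.34e-05) were the largest. For canonical Wnt signalling, 11 of 17 genes were kept and 7 rose (21.2% of all genes did), with a median of 0.44. The receptor Fzd2 gave 7.12, 6.96, 6.93 and 6.78 on the Esrrb arrays against 8.63, 8.75, 8.40 and 8.25 on the dual arrays. The groups were apart (1.56, SE 0.12, adjusted p = 1.07e-07), and the Wnt-induced transcription factors Sp5 and Cdx1 rose by 1.01 and 0.66. Wnt8a, a ligand, differed by 0.59, but its call was lost without Esrrb array C or D, dual array A or B, GFP array B or Sox2 array C (adjusted p of 0.0503 to 0.144), and Axin2, a feedback inhibitor, lost its call without Esrrb array C or dual array B (0.056 and 0.0637). Of 13 mesendoderm genes, 6 were kept and 4 rose (21.2% of all genes did). Among the 4 was Gsc, a homeobox gene of the organizer. Gsc gave 5.25, 4.87, 5.61 and 5.26 against 5.63, 5.91, 5.93 and 5.94 and was detected on 2 Esrrb arrays. The brachyury gene T and Mixl1 were not kept.

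Genes known to be bound by Oct4 and Sox2 at their composite element fell throughout: all 9 listed were kept and all 9 fell (20.2% of all genes fell), with a median of -0.72. This list was chosen for what is known of the 2 factors, but with earlier results of these data already known. Its members overlap the pluripotency lists. Pou5f1 itself gave 12.38, 12.37, 12.32 and 12.46 on the Esrrb arrays and 11.36, 11.59, 11.46 and 11.56 on the dual arrays. The groups were apart, and Pou5f1 fell by 0.89 (SE 0.06, adjusted p = 4.29e-08), a 1.86-fold reduction. Lefty1, a secreted Nodal antagonist, gave 12.57, 12.54, 12.41 and 12.30 against 11.40, 11.48, 10.996 and 11.14, a fall of 1.20 (SE 0.11, adjusted p = 9.29e-07). Gdf3, a Nodal-related ligand, fell by 1.06. Fgf4, a growth factor with a classic Oct4-Sox2 enhancer, fell by 1.13, but it was detected on 2 of 4 dual arrays, and with a background offset of 50 its difference was -0.69. Nanog fell by 0.64 (SE 0.11, adjusted p = 0.00023) and Zscan10 by 0.34; the call for Zscan10 was lost without Esrrb array A or B or dual array C or D (adjusted p of 0.0579 to 0.0866). The composite element was searched in the 250 bases before the annotated start of 6527 kept genes with a RefSeq promoter (GRCm38.p6), on both strands, as the Sox element CATTGT, any 1 base, and the octamer part ATGCAAA. It occurred in 1 of them (0.0153%), Nanog, shown with the match in capitals (reverse strand, ending 61 bases before the start, chr6:122707239-122707488, plus strand).
Nanog: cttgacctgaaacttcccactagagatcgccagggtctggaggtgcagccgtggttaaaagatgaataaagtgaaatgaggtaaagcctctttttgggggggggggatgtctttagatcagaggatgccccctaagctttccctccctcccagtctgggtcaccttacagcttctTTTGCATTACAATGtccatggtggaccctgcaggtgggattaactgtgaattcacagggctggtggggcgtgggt

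The other 4 listed targets with a promoter in the table had no match in this window.

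General pluripotency genes fell as well, 11 of the 15 kept of 20, with a median of -0.56. Of all genes 20.2% fell and 21.2% rose. The RNA-binding protein L1td1 fell by 1.09 and the Nodal co-receptor Tdgf1 by 0.80, whereas Sall4 and Dppa5a differed by -0.12 and -0.06 and did not pass. Of 19 naive-state genes, 15 were kept; 9 fell and 2 rose, with a median of -0.56. Klf2, a Krüppel-like factor of the naive state, gave 11.96, 11.99, 11.82 and 11.96 on the Esrrb arrays and 10.58, 10.24, 10.48 and 10.22 on the dual arrays. Its difference of -1.55 (2.94-fold lower, SE 0.08, adjusted p = 2.42e-09) was the largest fall of the list, followed by the adhesion molecule Pecam1 (-1.31) and the homeobox gene Gbx2 (-1.22). Its relatives did not follow: Klf4 differed by -0.13 (adjusted p = 0.197) and Klf5 by 0.07, neither of which passed. Khdc3, an oocyte and naive-state gene, and Tbx3, a T-box factor, were the 2 that rose, by 0.55 and 0.56. The rise of Tbx3 was uneven, at 0.91 on arrays A and B and 0.21 on C and D (adjusted p = 0.248 on C and D alone).

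Markers of the primed epiblast, the state that follows the naive one, moved in both directions. Of 14 listed, 7 were kept, 3 fell and 2 rose (20.2% and 21.2% of all genes), and the median was -0.20. Otx2, the transcription factor that directs ES cells toward that state, gave 8.63, 8.88, 8.76 and 8.64 on the Esrrb arrays and 7.35, 7.12, 6.96 and 6.93 on the dual arrays. It fell by 1.64, or 3.12-fold (SE 0.12, adjusted p = 8.03e-08), whereas the tight-junction protein Cldn6 rose by 0.82. Zic2, a zinc-finger factor, fell by 0.90 but was detected on 2 dual arrays and lost its call without Esrrb array B or D or dual array A or B (adjusted p of up to 0.0803); the other call upward, Wnt8a, is described with the Wnt genes. The paralogue of Otx2, Otx1, rose by 1.14 (SE 0.13, adjusted p = 4.57e-06), from 6.64 to 7.15 on the Esrrb arrays to 7.90 to 8.26 on the dual arrays. Otx1 was 1 of 4 neuroectoderm genes kept of 15 listed, with Stmn2, a neuronal microtubule regulator, falling by 0.54. In the Nodal pathway, 6 of 10 kept genes fell (20.2% of all genes did) and Furin, a protease that processes the ligand, rose. The members that fell were Lefty1, Gdf3, Tdgf1, Lefty2, Nodal and the receptor Acvr2b. Among 13 kept genes of FGF and ERK feedback, 6 fell and 3 rose (20.2% and 21.2% of all genes). The inhibitor Spry4 gave 6.68, 7.16, 6.55 and 7.17 against 6.41, 5.64, 5.75 and 5.67, a fall of 1.02 (SE 0.22, adjusted p = 0.00138), while Phlda1 rose by 0.91 and the inhibitor Dusp6 differed by -0.18 and did not pass. Dual array A stood highest of its group for Spry4.

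Of 16 nuclear receptors listed, 8 were kept and 3 fell, a share below the 41.4% of all genes called: Rarg, a retinoic acid receptor, by 1.03, Nr5a2, which binds the Pou5f1 promoter and a DNA element like that of Esrrb, by 0.62, and Nr1d1 by 0.60. The call for Nr1d1 was lost without dual array C (adjusted p = 0.0538). Esrra, the closest kept relative of Esrrb, differed by -0.09 and did not pass. In the Sox family, 7 of 10 other members were kept. Sox15, which can bind with Oct4, fell by 0.75 and Sox13 by 0.66, while Sox7 rose. The LIF and STAT3 list had 13 kept genes, of which 3 rose and 3 fell, with a median of 0.13. Both this list, with 6 of 13 called, and the Sox family, with 3 of 7, were near the 41.4% of all genes. Socs3, a direct STAT3 target, did not pass (adjusted p = 0.958).

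Interferon-inducible genes of antigen presentation and the guanylate-binding proteins (GBPs), GTPases of cell-autonomous immunity, rose. Of 19 listed, 13 were kept and 9 rose (21.2% of all genes did), with a median of 0.56. Cxcl10, a chemokine, gave 5.43, 5.23, 5.88 and 5.85 on the Esrrb arrays, where it was detected on 2, and 7.95, 8.30, 8.22 and 8.12 on the dual arrays. Its rise of 2.55 (SE 0.15, adjusted p = 9.11e-09) is measured against a level at the detection limit, and with a background offset of 50 the difference was 1.94. Gbp2b gave 9.57, 9.41, 9.34 and 9.12 against 10.65, 10.25, 10.39 and 10.41, a rise of 1.06 (SE 0.10, adjusted p = 6.14e-07), and Gbp2 rose by 1.05. The peptide transporter Tap1 rose by 0.74, and the immunoproteasome subunits Psmb9 and Psmb10 differed by -0.06 and -0.11 and did not pass. Irf1, a transcription factor that induces many of these genes, differed by -0.10 and did not pass the test. In the type I interferon list, 12 of 22 were kept, 5 rose and 1 fell (21.2% and 20.2% of all genes). In either direction 6 of the 12 were called, near the 41.4% of all genes. Isg15, a ubiquitin-like modifier, gave 6.01, 5.83, 5.87 and 5.95 against 7.46, 7.83, 7.30 and 7.50, a 3.04-fold rise (1.61, SE 0.24, adjusted p = 7.34e-05), and the antiviral enzyme Rsad2 rose by 0.86. Ifitm1, an interferon-induced membrane protein also expressed in early embryos, fell by 1.10. The interferon genes Irf7, Ifit1 and Mx1 were not kept. Of the other calls, Irf9 lost its call without Esrrb array A or B or dual array D, Usp18 without Esrrb array C or D or dual array A or B, and B2m without Esrrb array C or D or dual array C (adjusted p of up to 0.0707, 0.112 and 0.0763).

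The core of the interferon-stimulated response element, 2 copies of GAAA with any 2 bases between them on either strand, occurred in the 250 bases before the start of 218 of 6527 genes (3.34%). It was present in 7 of 12 promoters of the GBP and antigen presentation list (B2m, Cxcl10, Gbp2, Gbp2b, Gbp3, Igtp and Irgm1) and in 5 of 10 of the type I interferon list (Bst2, Ifit3, Isg15, Rsad2 and Stat2), which are families in which this element is well known. Having the element did not go with a rise in every case: Irgm1 and Stat2 differed by 0.02 and 0.04 and did not pass. Among genes that rose at least 2-fold, 5 of 75 promoters held it (6.67%), but among all genes that rose the share was 47 of 1391 (3.38%), close to that of all genes. The promoters of Cxcl10 (chr5:92348890-92349139, minus strand), Isg15 (chr4:156200819-156201068, minus strand) and Gbp2b (chr3:142594597-142594846, plus strand) are shown from RefSeq (GRCm38.p6) because these genes rose most in their families or differed between backgrounds; capitals mark every match, 3 of which overlap in Isg15.
Cxcl10: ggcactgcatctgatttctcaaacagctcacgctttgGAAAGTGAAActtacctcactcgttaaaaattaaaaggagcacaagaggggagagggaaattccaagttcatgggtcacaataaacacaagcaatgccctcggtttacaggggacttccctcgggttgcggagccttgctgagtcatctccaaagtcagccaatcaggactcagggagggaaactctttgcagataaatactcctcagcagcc
Isg15: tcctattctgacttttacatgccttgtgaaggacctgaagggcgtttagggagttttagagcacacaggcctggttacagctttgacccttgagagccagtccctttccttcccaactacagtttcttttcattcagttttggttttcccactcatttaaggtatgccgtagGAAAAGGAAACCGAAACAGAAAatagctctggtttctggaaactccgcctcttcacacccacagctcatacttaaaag
Gbp2b: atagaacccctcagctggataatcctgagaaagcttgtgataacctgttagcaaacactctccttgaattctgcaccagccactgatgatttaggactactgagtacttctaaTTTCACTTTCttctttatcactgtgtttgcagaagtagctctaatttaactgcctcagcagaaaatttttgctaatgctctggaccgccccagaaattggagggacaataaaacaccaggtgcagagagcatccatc

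The nearest match ended 203 bases before the start in Cxcl10, 56 in Isg15 and 127 in Gbp2b.

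Actin cytoskeleton genes and targets of SRF and YAP, transcription regulators that respond to cell shape and tension, rose in 13 of 16 kept cases of 22 listed (21.2% of all genes did), with a median of 0.66. Tpm1, a tropomyosin of actin filaments, gave 12.50, 12.56, 12.25 and 12.25 on the Esrrb arrays and 13.65, 13.68, 13.44 and 13.45 on the dual arrays, a rise of 1.17 (SE 0.09, adjusted p = 6.76e-08). Ccn1, a secreted YAP target, gave 7.86, 7.74, 7.89 and 8.003 against 9.03, 8.74, 9.23 and 9.17, a rise of 1.17 (SE 0.11, adjusted p = 6.38e-07), and Amotl2, a YAP inhibitor that YAP induces, rose by 0.96. Ccn2, the paralogue of Ccn1, differed by 0.15 and did not pass. The brightest probe of Actb rose 1.28-fold (0.35, adjusted p = 0.00102), from between 13.89 and 14.06 to between 14.22 and 14.53. Its 4 other kept probes differed by -0.32 to 0.61, and 2 of them pointed the opposite way. No direction is therefore given for Actb, although by its brightest probe it is counted among the 13 that rose. Of the 8 kept housekeeping genes it was the 1 whose brightest probe passed, with Gusb or Tbp added without dual array D or B (adjusted p of 0.0478 and 0.0367). The TEAD site core, GGAATG on either strand, occurred upstream of 817 of 6527 genes (12.5%), of 8 of 13 in this list and of 19 of 75 genes that rose at least 2-fold (25.3%), with 11 of 60 among those that fell at least 2-fold (18.3%) and 204 of 1391 among all that rose (14.7%). The actin, SRF and YAP list was chosen for what is known of these genes, with earlier results of these data already known. Its share of matches may follow from that choice. The promoter of Ccn1 (chr3:145649986-145650235, minus strand, RefSeq GRCm38.p6) held 1 match, in capitals, ending 97 bases before the start.
Ccn1: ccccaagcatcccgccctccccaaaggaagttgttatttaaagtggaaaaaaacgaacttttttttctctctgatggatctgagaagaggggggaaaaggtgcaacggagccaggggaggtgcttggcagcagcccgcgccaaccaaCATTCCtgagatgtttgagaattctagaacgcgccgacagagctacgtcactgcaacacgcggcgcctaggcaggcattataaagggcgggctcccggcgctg

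Annexins, calcium-dependent membrane-binding proteins, rose in 6 of 8 cases: Anxa3 gave 11.88, 11.88, 11.85 and 11.87 on the Esrrb arrays and 12.84, 12.92, 12.80 and 12.86 on the dual arrays, a rise of 0.99 (SE 0.06, adjusted p = 9.11e-09). Anxa8 differed by -0.64, a call that was lost without Esrrb array A or B or dual array A, C or D (adjusted p of 0.0529 to 0.0859). Among adhesion and epithelial-mesenchymal genes, 7 of 17 kept rose, led by the tight-junction claudins Cldn4 (0.95), Cldn3 (0.83) and Cldn6 (0.82). Beside this list and the annexins, 21.2% of all genes rose. In either direction 8 of the 17 adhesion genes were called, near the 41.4% of all genes. Cdh1, the epithelial cadherin of ES cells, differed by -0.04 and did not pass, and the mesenchymal genes Vim and Snai1 rose by 0.27 and 0.60.

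Imprinted genes are expressed from 1 parental allele, and many of them act in placental growth. They rose in 10 of 17 kept cases and fell in 3, with a median of 0.52. Of all genes 21.2% rose and 20.2% fell. The retrotransposon-derived Peg10, needed for the placenta, gave 6.05, 6.27, 6.66 and 6.78 against 7.65, 7.29, 7.97 and 7.58, a rise of 1.18 (SE 0.20, adjusted p = 0.000213). The amino acid transporter Slc38a4 rose by 1.13 and Cdkn1c, an inhibitor of cyclin-dependent kinases, by 1.11. Cdkn1c gave 12.40, 12.34, 12.34 and 12.16 on the Esrrb arrays and 13.39, 13.54, 13.29 and 13.47 on the dual arrays. Genes of the 2-cell-like state, a rare state of ES cells that resembles the early embryo, rose in 6 of 8 kept cases, by a median of 0.42. Usp17la, a deubiquitinase, rose by 0.998 and Tdpoz1 by 0.92, while Zscan4c, the usual marker of that state, differed by 0.10 and did not pass. These genes belong to near-identical families, so a probe can read several copies. On arrays A and B alone 2 of them passed, and on C and D alone 6.

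DNA replication genes fell in 9 of 18 kept cases with a median of -0.27, led by Mcm3, a subunit of the replicative helicase, which gave 10.27, 10.24, 10.32 and 10.26 against 9.71, 9.43, 9.63 and 9.64 (-0.67, SE 0.06, adjusted p = 5e-07). Of all genes 20.2% fell and 41.4% were called in either direction. In mitosis, 4 of 10 kept were called, near the latter share. All 4 fell, among them Top2a, which untangles DNA, by 0.67. Bub1b was among the 4, and its call was lost without dual array B or D (adjusted p of 0.0521 and 0.0621). Targets of p53 rose in 7 of 10 kept cases (21.2% of all genes rose) with a median of 0.40. Phlda3 rose by 0.91, the cell-cycle inhibitor Cdkn1a by 0.79 and the p53 ligase Mdm2 by 0.73. Cdkn1a gave 10.65, 10.64, 10.53 and 10.45 on the Esrrb arrays and 11.36, 11.57, 11.20 and 11.27 on the dual arrays, without overlap, while Bbc3 and Zmat3 differed by 0.01 and 0.06 and did not pass. Of the G1 and Myc genes, Cdkn1c and Cdkn1a were the largest rises and E2f1 fell by 0.42; Myc differed by -0.10 and did not pass.

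Several lists stayed near the share of all genes called (41.4%) or under it. Oxidative phosphorylation genes had 3 of 23 called, with a median of -0.13; Ndufa1 and Ndufv1, subunits of complex I, each lost the call in 11 of the 16 fits that left out 1 array (adjusted p of up to 0.145 and 0.135), while Sdhb of complex II, which fell by 0.41, kept it. Glycolysis and hypoxia genes had 4 of 17 called and a median of -0.02. The 1 that rose, Ndrg1, lost its call without Esrrb array A or B or dual array A or C (adjusted p of up to 0.116), and without dual array B 4 rose. Cholesterol synthesis had 3 of 9 called and a median of -0.14. In the ATF4 and unfolded protein list, 7 of 16 were called; the stress factor Ddit3 gave 11.36, 11.13, 12.06 and 11.98 against 10.40, 10.75, 11.25 and 10.84, groups that overlapped, and its call was lost without Esrrb array C or D or dual array A (adjusted p of up to 0.0686). Chac1 lost its call without Esrrb array B or dual array C (up to 0.0541), and Phgdh without Esrrb array A, B or D or dual array A, C or D (up to 0.116) and with the replicate block (0.0519). Lysosomal genes had 4 of 12 called, Ctsb rising by 0.58 and Psap by 0.44, and both DNA methyltransferase genes called, Dnmt3l and Dnmt3b, fell by 0.42 and 0.25. The 12 ribosomal protein genes had a median of -0.01, and the members that differed most, Rps3 (-0.27) and Rpl4 (-0.19), did not pass (adjusted p of 0.0627 and 0.0948). Rps3 passed without dual array A or C (adjusted p of 0.0382 and 0.0169) and Rpl4 without dual array C (0.0194), and both passed with the replicate block (0.0423 and 0.0367). The plot of all 34 lists orders them by median, from the Oct4-Sox2 targets at -0.72 to the trophectoderm and placenta genes at 1.17.

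**Figure D2:**
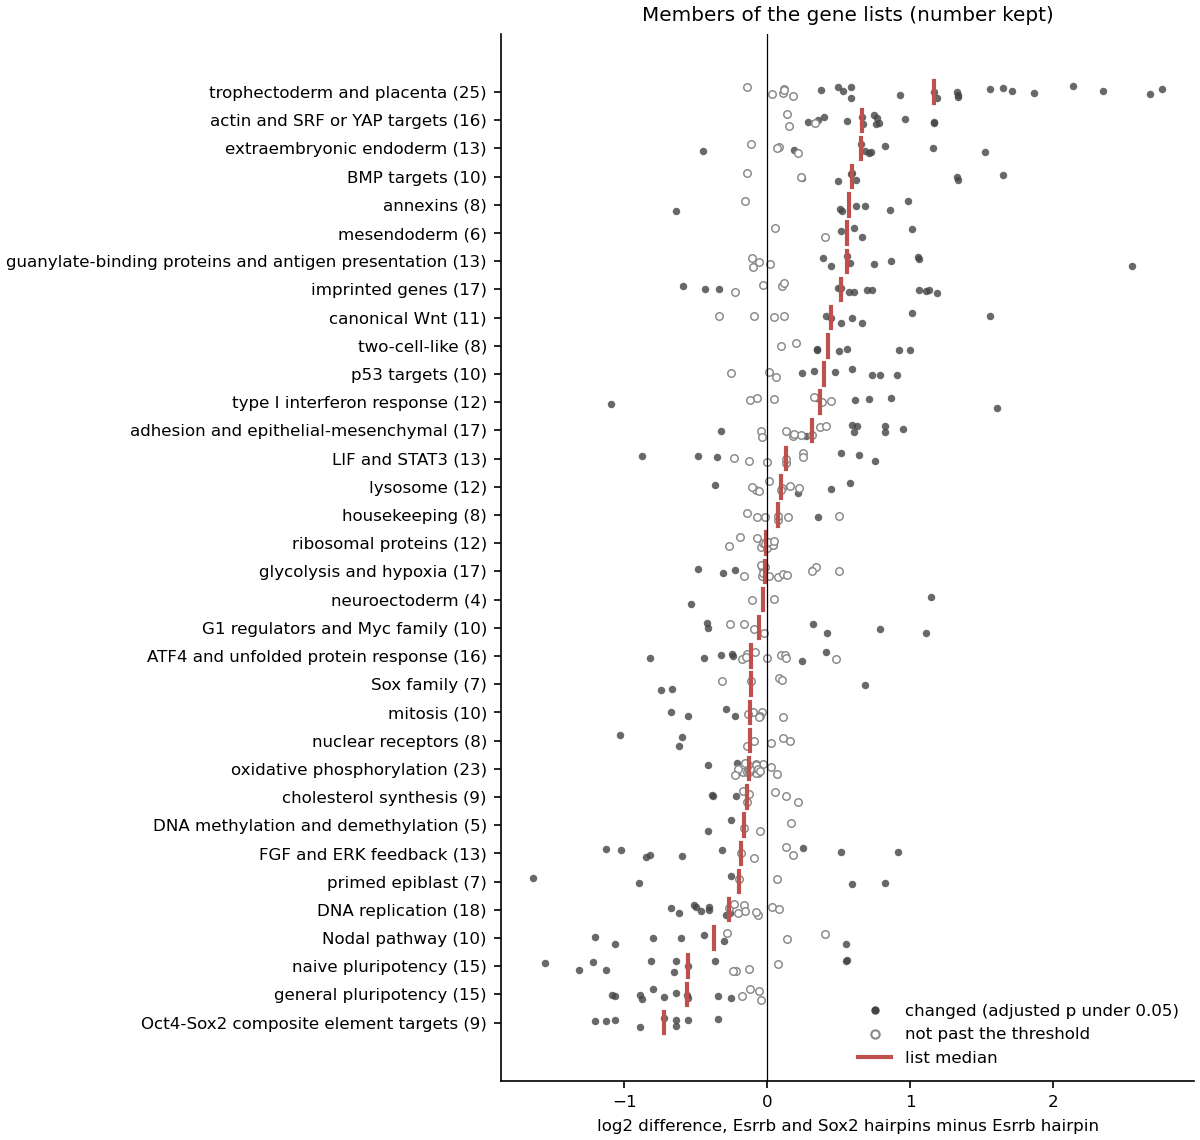
Log2 difference, dual arrays minus Esrrb arrays (x axis), of every kept member of 34 gene lists (rows, ordered by median), filled where limma's adjusted p was under 0.05 and open otherwise, with a red bar at each list's median. The trophectoderm and placenta list lies at 1.17 and the Oct4-Sox2 targets at -0.72, against -0.02 for all genes.

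The group with the Sox2 hairpin alone was compared with the control hairpin group, so that effect could be set beside the one above. There the Sox2 hairpin took the place of the control hairpin, whereas here it was added to the Esrrb hairpin. The 2 comparisons share no arrays, although all 16 were normalised together and carry the same letters. Across 8040 genes the effects correlated at 0.816 (0.736 and 0.786 when each comparison used the other array set), which describes genes within these arrays, since genes are not independent replicates. Of the genes called here, 2398 were also called for the Sox2 hairpin against the control hairpin (72.1% of the 3328 and 68.0% of 3524; 43.8% of all genes), 2369 of them in the same direction. The median size of a difference was 0.22 here and 0.23 there. Rhox6 rose by 2.76 with the Esrrb hairpin present and 2.98 without it, Krt18 by 2.35 and 2.66, and Pou5f1 fell by 0.89 and 0.90. For each of these the difference between the effects did not pass (adjusted p of 0.513, 0.245 and 0.969).

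The difference between the Sox2 hairpin's effects passed the test for 237 of 8040 genes (2.95%), 133 with a larger value in the presence of the Esrrb hairpin (1.65%) and 104 with a smaller one (1.29%). All 237 had the same sign on arrays A and B as on C and D, but they were selected on these same arrays, so this is no separate support. The count depended on the fit: it was 356 with the array letter as a replicate block and 426 with the array sets as one, 153 without GFP array B, 126 without the detection filter, 367 without normalisation, 34 on arrays A and B alone, 21 on C and D alone and 13 with set means as replicates. In 108 of the 237 genes the effect was smaller in size in the presence of the Esrrb hairpin, in 99 it had the other sign and in 30 it was larger. These are signs and sizes of the estimates, whether or not each effect passed; over all 8040 genes, 29 were called in opposite directions. Of 930 genes called here and not for the Sox2 hairpin alone, 39 differed by this test, and of 1126 called there and not here, 93 did. Most genes past the threshold on 1 background only were therefore not shown to differ between backgrounds.

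**Figure D3:**
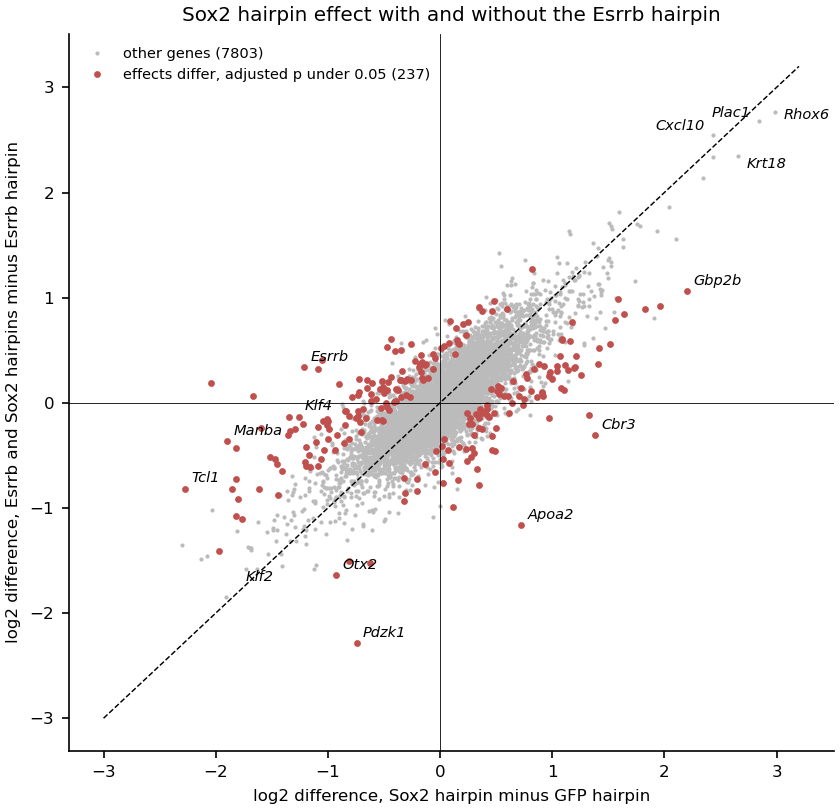
Log2 difference for each of 8040 genes, Sox2 hairpin minus control hairpin (x axis) and both hairpins minus Esrrb hairpin (y axis). The 237 genes whose effects differ are in red, and a dashed line marks equal effects. Rhox6, Plac1 and Krt18 lie near the line, while Esrrb (-1.21 and 0.34), Cbr3 (1.38 and -0.30), Apoa2 (0.72 and -1.16) and Pdzk1 (-0.74 and -2.28) lie away from it.

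Among naive-state genes 7 of 15 passed this test (2.95% of all genes did): Tcl1, Zfp42, Manba, Jam2, Klf4, Klf5 and Tbx3, named because they passed. The median effect on the 15 genes was -0.56 here and -1.28 against the control hairpin. Tcl1, a co-activator of the kinase Akt, fell by 0.82 with the Esrrb hairpin and by 2.27 without it (difference 1.46, adjusted p = 2.05e-05). Its group means were 10.03 with the control hairpin, 8.58 with the Esrrb hairpin, 7.76 with the Sox2 hairpin and 7.76 with both. Klf4 gave means of 9.44, 8.30, 8.18 and 8.17 in that order, with a difference of effects of 1.13 (adjusted p = 2.61e-05). Manba, a lysosomal mannosidase, gave 11.92, 10.34, 10.02 and 9.97 (difference 1.53, adjusted p = 2.82e-06). For Tcl1 and Manba the mean with the Esrrb hairpin alone was above the mean with both, whereas for Klf4 that difference did not pass the test. Klf2 did not share this: it fell by 1.55 here and 1.41 against the control hairpin (difference -0.14, adjusted p = 0.598). The calls for Zfp42, Jam2 and Tbx3 were less stable. Zfp42 (0.75, adjusted p = 0.0391) lost its call without 13 of the 16 arrays left out singly (up to 0.0842), Jam2 (1.35) without Esrrb array C or D, GFP array B, Sox2 array C or dual array A (up to 0.0591), and Tbx3 (0.82, adjusted p = 0.0272) without Esrrb array B, GFP array B, Sox2 array C or D or dual array A or B (up to 0.0557).

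Among the largest opposed effects, Cbr3, a carbonyl reductase, rose by 1.38 with the Sox2 hairpin against the control hairpin. It fell by 0.30 when the Sox2 hairpin was added to the Esrrb hairpin (difference -1.69, adjusted p = 2.82e-06). Its small fall here lost its call without Esrrb array B or dual array B (adjusted p of 0.0535 and 0.0524), and its means were 9.16, 10.07, 10.54 and 9.76 for the control, Esrrb, Sox2 and dual groups. Apoa2, an apolipoprotein of high-density lipoprotein, gave 6.91, 6.61, 6.88 and 6.76 on the Esrrb arrays and 5.47, 5.23, 6.01 and 5.79 on the dual arrays, where it was detected on 2 of 4. It fell by 1.16 here (SE 0.17, adjusted p = 7.11e-05) against a difference of 0.72 without the Esrrb hairpin. Crtac1, an extracellular matrix protein, rose by 0.40 here and differed by -1.05 there (difference of effects 1.46, adjusted p = 1.09e-05). Pdzk1, which anchors transporters and the HDL receptor at the membrane, gave 8.92, 9.10, 9.09 and 8.81 on the Esrrb arrays and 6.70, 6.60, 6.60 and 6.89 on the dual arrays. Its difference of -2.28 (4.87-fold lower, SE 0.09, adjusted p = 1.16e-10) was the largest fall of all genes and exceeded that without the Esrrb hairpin (-0.74; difference -1.54, adjusted p = 2.82e-06). The Esrrb hairpin alone had moved Pdzk1 by 1.72 against the control hairpin, a comparison that shares the Esrrb arrays with this one. Gbp2b rose less with the Esrrb hairpin (1.06) than without it (2.20; difference -1.14, adjusted p = 0.00019).

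**Figure D4:**
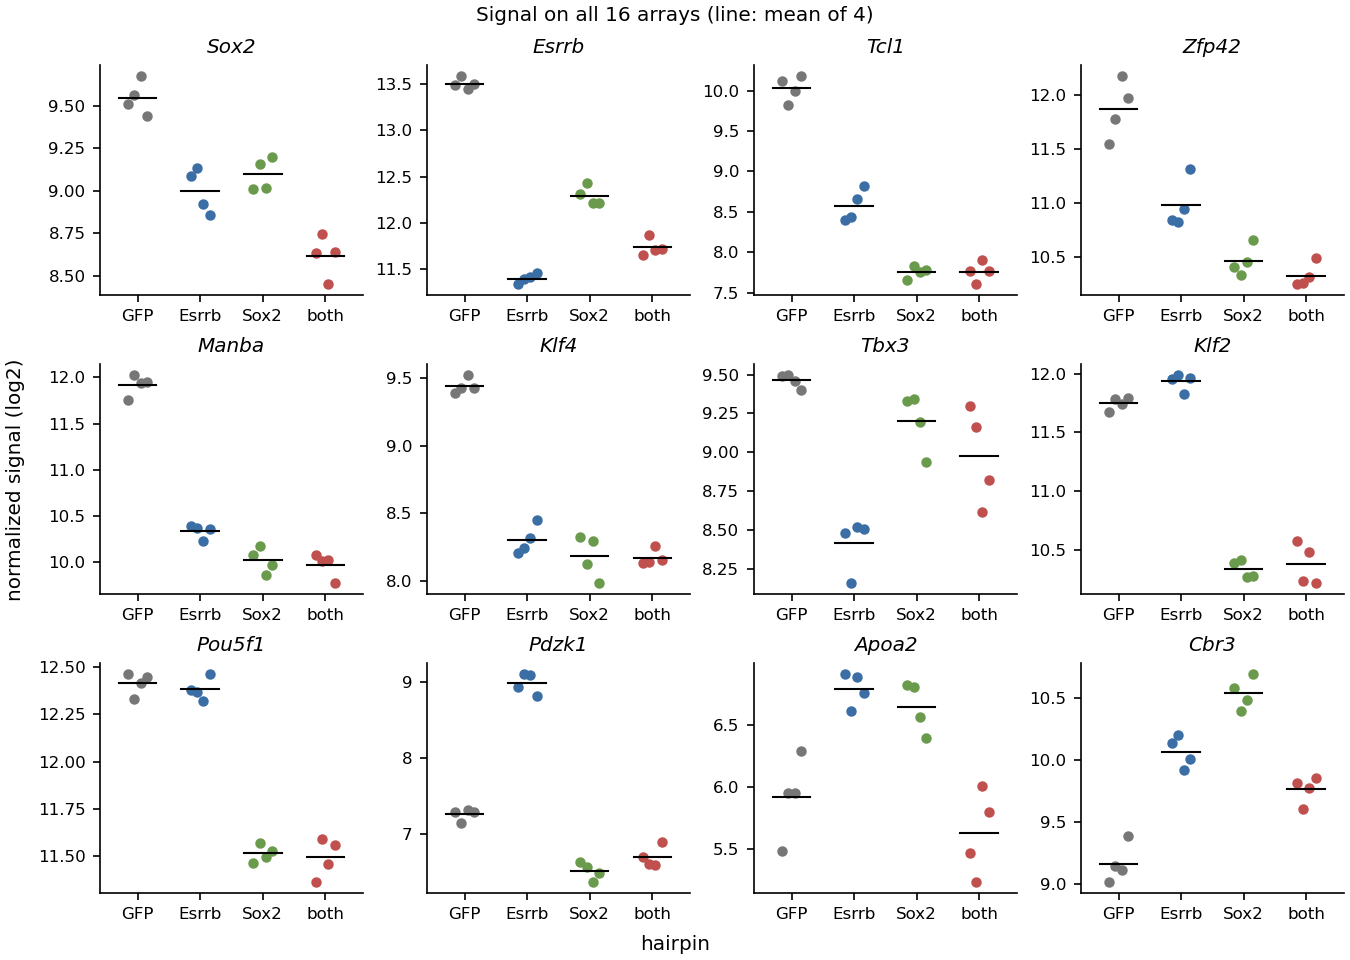
Log2 normalised signal (y axis) of 12 genes in the 4 hairpin groups (x axis), 1 dot per array and a line through the group means. Esrrb is lowest with the Esrrb hairpin alone (11.40) and Sox2 lowest with both (8.62); Tcl1, Manba and Klf4 have nearly the same mean with the Sox2 hairpin as with both, and Pdzk1 is highest with the Esrrb hairpin alone (8.98).

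The remaining large falls included genes with few ties to pluripotency in the lists used. Trh, the precursor of thyrotropin-releasing hormone, gave 13.17, 13.17, 12.69 and 12.50 on the Esrrb arrays and 11.17, 11.17, 10.84 and 10.97 on the dual arrays, a log2 difference of -1.85 (3.601-fold lower, SE 0.16, adjusted p = 2.49e-07) with arrays A and B above C and D in each group. Mylpf, a fast-muscle myosin light chain, gave 11.54, 11.50, 11.49 and 11.71 against 9.90, 10.34, 9.92 and 9.90, a fall of 1.55. Acta1, the skeletal-muscle actin, moved the other way, from between 8.96 and 9.34 to between 10.74 and 10.99. Trim2 fell by 1.58 and Rasgrp1 by 1.51, both detected on all 8 arrays. Aoah (-1.58), Accsl (-1.58), Clps (-1.52), Myo1f (-1.49) and Pdyn (-1.46) were detected on 1, 2, 3, 3 and 1 of the 4 dual arrays, so their lower levels lie near the detection limit; with a background offset of 50 the differences of Aoah and Pdyn were -0.99 and -0.84.

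Some differences that passed were uneven between the array sets, by over 1.5 times. They were larger on arrays A and B than on C and D for Accsl (-1.94 and -1.22), L1td1 (-1.41 and -0.76), Apoa2 (-1.41 and -0.92), Zic2 (-1.21 and -0.58), Cbr3 (-0.46 and -0.15) and Zscan10 (-0.42 and -0.27). The same held for rises of Msx2 (1.61 and 1.05), Cldn4 (1.15 and 0.74), Tap1 (1.03 and 0.46), Khdc3 (0.79 and 0.31), Axin2 (0.52 and 0.29) and Ndrg1 (0.41 and 0.22). They were smaller on A and B than on C and D for Cdx1 (0.43 and 0.89), Sox7 (0.53 and 0.83), Usp18 (0.41 and 0.82), B2m (0.17 and 0.61), Amn (0.13 and 0.24), Nr5a2 (-0.46 and -0.78), Nodal (-0.34 and -0.55), Sdhb (-0.29 and -0.54), Phgdh (-0.19 and -0.31) and Ndufv1 (-0.15 and -0.23). Each of these kept its direction in both sets.

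Taking both directions, 1491 genes (18.5%) had every dual array above every Esrrb array and 1422 (17.7%) every dual array below. Few genes were present in 1 group and undetected in the other: Olfml3 and Pafah2 were detected on no Esrrb array, and Bcl11a, Epas1, Insc, Kcnu1 and Zg16 on no dual array. They were named because they met that description.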

How the data were processed

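Total RNA was measured on 16 single-colour bead arrays, 4 per hairpin group. The deposited table holds 1 intensity per probe and array, not normalised between arrays per the file headers; values below 0 (20.9% to 25.2% of probes per array) show that a background had been subtracted by the authors or their scanner software. A second deposited column per array is a detection score headed as a p-value; it rose with intensity (correlation of at least 0.935) and therefore was taken to be 1 minus the p of detection. A deposited table of 1 processed ratio per probe and group, of unstated scaling, was used as a check only. The version of the array software is not stated per the labels.

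Intensities were background-corrected with normexp using the detection values, offset by 16, quantile normalised over all 16 arrays and taken to log2 with limma 3.58.1 (R 4.3.3). Of 25697 probes, 23978 had 1 gene symbol in the platform annotation and 1719 had none; 23962 were updated by gene identifier. The brightest kept probe stood for a gene. Group means were fitted over 16 arrays with lmFit and eBayes, and contrasts were adjusted by Benjamini-Hochberg over 8040 genes at a threshold of 0.05. The fit was tested on simulated data. The number of arrays limits the precision. Columns were assigned to groups by their names, A to D as the replicates.

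The array letters were checked as pairs: deviations from the group mean correlated between same-letter Esrrb and dual arrays at 0.28, 0.28, 0.40 and 0.28, all above 0.1, so a fit with the letter as a block was an alternative, with its count beside the result it moved. Other alternatives were the array sets as a block or alone, set means, normalisation, offset, detection filter, the probe rule and leaving out each array; leaving out GFP or Sox2 arrays was added after seeing the data. Genes named are the targets, the 12 largest rises and falls, up to 3 per list and 3 per direction of the difference of effects. The last were taken only among genes also called in dual against Esrrb. Msc (2.24) and Inhbb (1.74) had larger positive differences of effects but were passed over for that reason. The rises and falls were ranked among called genes whose dual and Esrrb arrays did not overlap. Symbols of clones and predicted genes were passed over. Other genes were named after their values were seen, for a call described or as list members that did not pass. The members and lists were chosen with earlier results of these data known. Promoters are RefSeq sequences of GRCm38.p6.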

Additional observations from a re-analysis of the deposited data

Results flagged for a closer look

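Of the 111 genes named by the set rules, 15 had a Sox2 hairpin effect that differed between the Esrrb and control backgrounds. This was by limma's test of the difference (adjusted p under 0.05). Values are on the log2 scale, as the effect with the Esrrb hairpin minus the effect without it. Genes named after their values were seen, such as Tcl1 and Klf4, also passed and are not among the 15. The effect was higher with the Esrrb hairpin for Esrrb (1.55), Manba (1.53), Crtac1 (1.46), Gsc (1.04) and Stmn2 (0.52). It was lower for Apoa2 (-1.89), Cbr3 (-1.69), Pdzk1 (-1.54), Gbp2b (-1.14), Tdpoz1 (-1.04), Tdpoz2 (-0.96), Clps (-0.90), Ndrg1 (-0.82), Otx2 (-0.71) and Rasgrp1 (-0.70). The call for Otx2 was lost without any 1 of 13 of the 16 arrays (adjusted p of up to 0.0757), that for Tdpoz1 without any 1 of 12 (up to 0.0865), and that for Rasgrp1 without Esrrb array C or GFP array B (0.0503 and 0.0546).

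A single array stood far from the other 3 of its group by Dixon's ratio for 11 named genes. On dual array B these were Mylpf (10.34, others 9.90 to 9.92), Gbp2 (11.47, others 11.57 to 11.58), Ndufa1 (11.95, others 12.20 to 12.25) and Stmn2 (10.01, others 9.81 to 9.84). Dual array C was high for Slc38a4 (8.19, others 7.41 to 7.53) and Col4a2 (11.25, others 11.09 to 11.10). Dual array A was high for Spry4 (6.41, others 5.64 to 5.75) and low for Gsc (5.63, others 5.91 to 5.94). Esrrb array D was high for Crtac1 (6.60, others 6.24 to 6.28) and Sdhb (9.99, others 9.69 to 9.74), and Esrrb array C for Gata3 (6.36, others 6.32). Chance alone marks about 1 group of 4 arrays in 20, and both groups of 111 named genes were looked at.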

How the results depend on the processing

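The 3328 genes called for adding the Sox2 hairpin numbered 2073 on arrays A and B alone, 2195 on C and D alone and 2128 with set means as replicates, all with fewer arrays or replicates; genes that fell numbered 934, 995 and 1017 and, with set means, 1111 rose. Without 1 array at a time 2915 to 3387 genes were called. With the array letter as a replicate block 3745 were called, 3300 of them shared, and 3798 with blocks for the array sets; of the calls given for single genes in the report, the block changed those of Amn, Phgdh, Rps3 and Rpl4 and no other. The 904 genes changed at least 1.5-fold became 596 with an offset of 50. The 237 genes whose Sox2 hairpin effects differed became 356 with the replicate block, 426 with the array set as a block, 367 without normalisation, 126 without the detection filter, 34 on A and B alone, 21 on C and D alone, 13 with set means and 153 (without GFP array B) to 268 with 1 array left out; this count has no value from the 8 arrays alone. On C and D alone Esrrb differed by 0.28 (adjusted p = 0.0509) and Sox2 by -0.35 (adjusted p = 0.0793). The share of calls that rose was 51.2%, 47.8% with median scaling and 46.5% without normalisation. Of 3093 values of 111 named genes under the alternatives, 2971 kept their side of the threshold, 113 lost the call, 9 gained it and none changed sign. The authors' deposited ratios gave differences correlated at 0.980 across genes. Signal near background limits genes detected on fewer than 4 arrays of a group. The cause of these changes was not tested beyond the smaller numbers of arrays and genes.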
